A study of Mus musculus with 4 samples.

Results

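Genes of retinoic acid signalling were examined for HOXA5 occupancy in the embryonic mouse lung. They are the receptor genes Rara, Rarb and Rarg, the partner receptor genes Rxra, Rxrb and Rxrg, the synthesis gene Aldh1a2, the breakdown genes Cyp26a1 and Cyp26b1, and the binding protein gene Crabp1, together 10 of 21775 protein-coding genes. HOXA5 was immunoprecipitated with a FLAG antibody from lungs of E15.5 embryos and the bound DNA was sequenced (ChIP-seq). All animals had the genotype Hoxa5FLAG/FLAG, an epitope tag knocked in at both copies of the endogenous Hoxa5 gene, although the sample titles carry "wt". The series holds 2 immunoprecipitates and 2 inputs, and 1 peak list per immunoprecipitate was used, with 4289 peaks in replicate 1 and 2832 in replicate 2. Neither input was used in this report. An untagged lung is not among the samples, so enrichment by the FLAG antibody without the tag could not be checked. Whether separate litters or lung pools gave the replicates is not in the labels. Whole lungs were used, so strong enrichment in a few cells and weak enrichment in many cannot be told apart. A peak list holds no expression values, so the tissue label was not checked against marker genes, and read depth is unknown.

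A peak was given to a gene when its summit lay inside the RefSeq span of that gene, or within 100 kb of it with that gene as the nearest protein-coding one. By this rule 5 replicate 1 peaks and 3 replicate 2 peaks belonged to the 10 genes. Rarb, Aldh1a2, Rara and Rxrg held all 8, and 6 genes had none. Each peak carries the fold enrichment and −log10 q that the authors' caller gave its summit, which hold within 1 list, and all positions are in mm10.

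Retinoic acid is made from retinaldehyde by enzymes such as ALDH1A2, which in the embryonic lung is expressed in the mesothelium and mesenchyme. It binds the receptors RARA, RARB and RARG, which sit on DNA as heterodimers with an RXR protein at direct repeats of a hexamer, and CYP26 enzymes oxidise it. CRABP1 carries it in the cytoplasm. Retinoic acid signalling is needed for the lung bud to form and is lowered as branching proceeds, and Rarb is both a receptor gene and a classic target of the pathway. HOXA5 is a homeodomain protein of the lung mesenchyme, and homeodomain proteins bind a core motif TAAT.

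Sequences are shown for the promoters of Rarb and Cyp26a1. Of the listed promoter windows of the 10 genes, only that of Rarb was overlapped by a peak, in replicate 1. RefSeq (GRCm38.p6, the mm10 build) lists 17 promoter windows for the 10 genes, each from 250 bases before a start to 50 bases after it. Direct repeats of the hexamers AGGTCA or GGGTCA or AGTTCA or GGTTCA, with 5 bases between them and on either strand, occurred in 32 of 32851 listed windows (0.0974%). Of the 10 genes, only Rarb and Cyp26a1 had one. The 250 bases before each of these starts are printed 5′ to 3′ on the coding strand, with the hexamers of the repeat in capitals. They cover chr14:16575477-16575726 on the minus strand for Rarb and chr19:37697558-37697807 on the plus strand for Cyp26a1.
Rarb: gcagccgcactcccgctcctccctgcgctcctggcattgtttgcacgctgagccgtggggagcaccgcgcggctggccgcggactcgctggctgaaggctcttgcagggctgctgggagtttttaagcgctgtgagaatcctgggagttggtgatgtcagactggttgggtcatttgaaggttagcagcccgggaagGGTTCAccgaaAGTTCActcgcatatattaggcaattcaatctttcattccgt
Cyp26a1: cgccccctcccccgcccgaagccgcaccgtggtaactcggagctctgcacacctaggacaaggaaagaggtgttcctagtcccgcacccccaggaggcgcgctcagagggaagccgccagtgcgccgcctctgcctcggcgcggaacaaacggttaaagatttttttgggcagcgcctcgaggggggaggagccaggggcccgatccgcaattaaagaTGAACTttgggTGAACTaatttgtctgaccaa
In Rarb the repeat read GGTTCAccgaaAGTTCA and lay 53 to 37 bases before the start. In Cyp26a1 it was on the opposite strand, read there as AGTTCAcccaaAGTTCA, 32 to 16 bases before the start. Both have the same second hexamer and differ in the first hexamer and in the spacer. Repeats of the same hexamers spaced by 1 or 2 bases were in none of the 17 windows, and were in 73 (0.222%) and 88 (0.268%) of all windows.

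Rarb, the retinoic acid receptor beta gene, had 2 sites, 1 at its listed start, in replicate 1, and 1 deep inside its span, in both replicates. The start peak lay at chromosome 14, 16575242 to 16575594 (353 bp), with 3.47-fold enrichment and a −log10 q of 8.37. Its summit was 34 bp downstream of the start at 16575476. The peak reached from 118 bp before the start to 234 bp after it, so it covered the whole direct repeat, whose centre was 79 bp from the summit. A TAAT, on the opposite strand and 27 to 24 bases before the start, was inside the peak too. TAAT is common, being present in 58% of all windows on either strand, and 8 of the 17 windows of the 10 genes held it. A GGGTCA lay 83 to 78 bases before the start. Of all listed promoter windows, 126 (0.384%) were overlapped by a replicate 1 peak, and the Rarb window was the only one of these 126 with such a repeat of spacing 5. In replicate 2 no peak overlapped this window, and 55 windows (0.167%) in all were overlapped there. Counted by coding gene, 0.4% had a window overlapped by a peak in replicate 1 and 0.137% in replicate 2, beside 1 and 0 of the 10 genes.

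**Figure D1:**
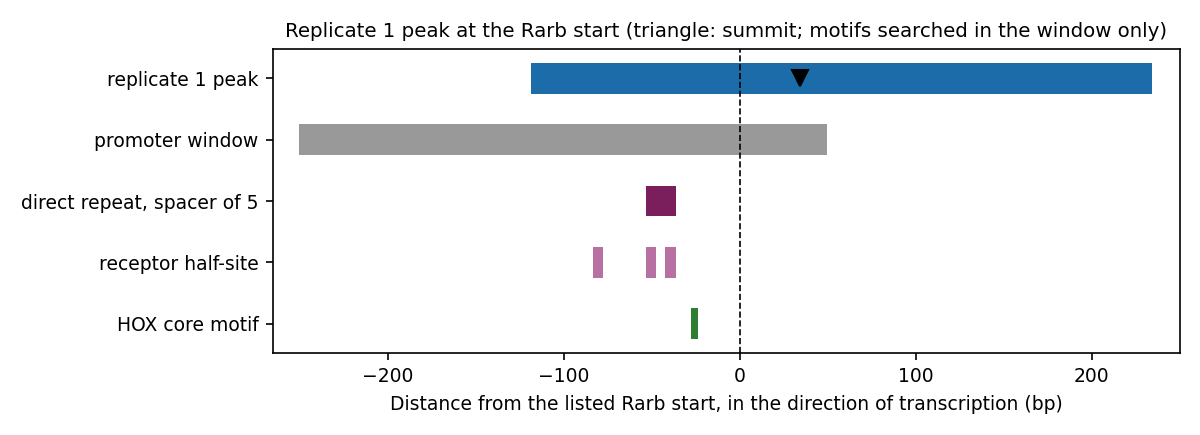
Features around the listed Rarb start (dashed line at 0), in base pairs along the direction of transcription: the replicate 1 peak with its summit as a triangle, the promoter window, and motif matches, which were searched in the window only. The peak spans 118 bp before to 234 bp after the start and covers the direct repeat at 53 to 37 bases before it.

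The other Rarb site was found in both lists. In replicate 1 it spanned chromosome 14, 16847443 to 16847735, with 5.60-fold enrichment and a −log10 q of 28.8, the highest of the 5 replicate 1 peaks on both measures. In replicate 2 it spanned 16847420 to 16847704, with 3.84-fold enrichment and a −log10 q of 13.0. The calls overlapped by 262 bp and their summits were 22 bp apart. This site lay 272 kb upstream of the listed start but still inside the annotated span of Rarb, which extends over 651 kb (16430839 to 17082331), and no other gene was annotated at the summit. The promoter table gives 1 start for Rarb, so the distance to starts of its other transcripts was not measured. The nearest other coding gene was Top2b, which encodes a DNA topoisomerase, 417 kb away. Top2b itself held a replicate 1 peak (2.63-fold) 65.4 kb from Rarb, which the rule gave to Top2b.

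Rara, the gene of the alpha receptor, had a single peak, in replicate 1, at chromosome 11, 98968653 to 98968940 (288 bp), with 4.40-fold enrichment and a −log10 q of 17.2. Its summit was inside the gene, 3.95 kb downstream of the last of 4 listed starts. No replicate 2 summit lay within 500 kb of Rara, and the nearest was 851 kb away. Rarg, the gene of the gamma receptor, had no peak. The nearest replicate 1 summit was 213 kb off, inside Pcbp2, and the nearest replicate 2 summit was 1048 kb off.

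Among the partner receptor genes, only Rxrg had a peak by the rule. It was a replicate 1 peak inside the gene (chromosome 1, 167625126 to 167625467, 342 bp) with 5.51-fold enrichment and a −log10 q of 25.3, and its summit lay 7.06 kb downstream of the second of 2 listed starts. In replicate 1 this fold ranked 953 of 4289 and that of the shared Rarb site 914, so the pair were close in enrichment although Rxrg had no partner in replicate 2. The nearest replicate 2 summit was 373 kb from Rxrg. Rxra and Rxrb had no peak. The nearest summits to Rxra were 234 kb away in replicate 1 and 348 kb away in replicate 2. Rxrb was 426 kb from a peak present in both lists.

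Aldh1a2 had a shared site before its start and a weaker replicate 2 peak inside the gene. The shared site, at chromosome 9, 71196076 to 71196653 in replicate 1 and 71196196 to 71196528 in replicate 2, had 3.21- and 2.87-fold enrichment and −log10 q of 7.69 and 5.38. The replicate 2 call lay wholly within the replicate 1 call, and the summits were 108 bp apart. The replicate 1 summit was 19.4 kb upstream of the start, inside Gm32511, a noncoding gene by the table, with Aqp9, a water and glycerol channel gene, the next coding gene at 28.5 kb. The internal peak (71241673 to 71241977) was 26.1 kb downstream of the start, with 2.35-fold enrichment and a −log10 q of 2.16. It had the lowest fold of the 3 replicate 2 peaks and ranked 2802 of 2832 in its list by −log10 q.

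**Figure D2:**
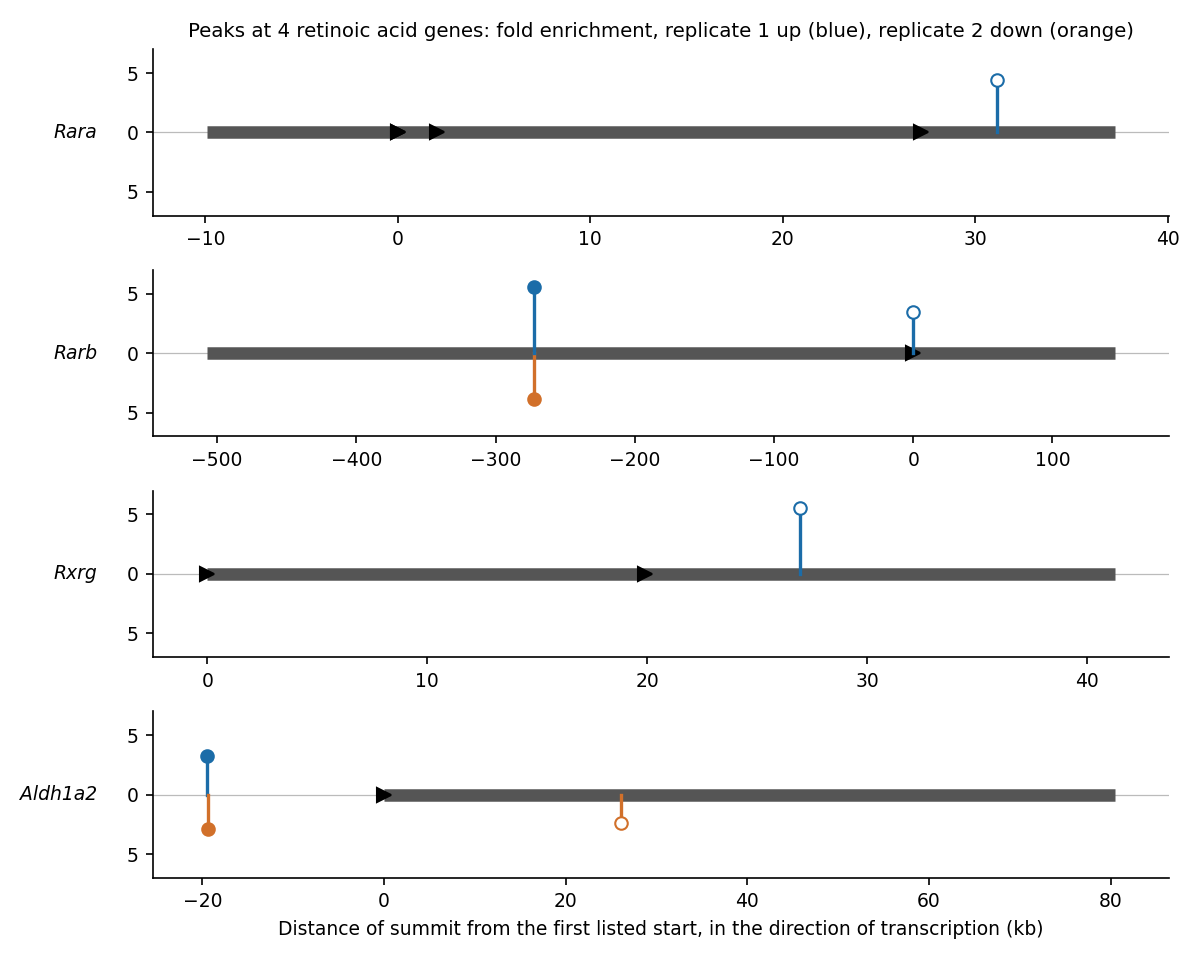
Summits at the 4 genes that had a peak, with fold enrichment on the vertical axis (replicate 1 upward in blue, replicate 2 downward in orange) against distance in kb from the first listed start along the direction of transcription. Grey bars are gene spans, black arrowheads listed starts, and filled circles peaks with a partner in the other list. Of the 6 sites, the one far inside Rarb and the one before Aldh1a2 appear in both lists.

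The breakdown and binding genes had no peak. Cyp26b1 came nearest: a site in both lists lay 120 kb from it, just outside the limit and inside Exoc6b, an exocyst gene (2.92-fold in replicate 1, 2.64-fold in replicate 2). Cyp26a1, whose promoter window holds the other direct repeat, was 169 kb from the nearest replicate 1 summit and 398 kb from the nearest replicate 2 summit. Crabp1 was the most isolated gene in replicate 1, with the nearest summits 937 kb away in both lists, at a site inside Scaper. Over the 10 genes the median distance to the nearest summit was 145 kb in replicate 1 and 385 kb in replicate 2, beside 260 and 384 kb over all coding genes.

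**Figure D3:**
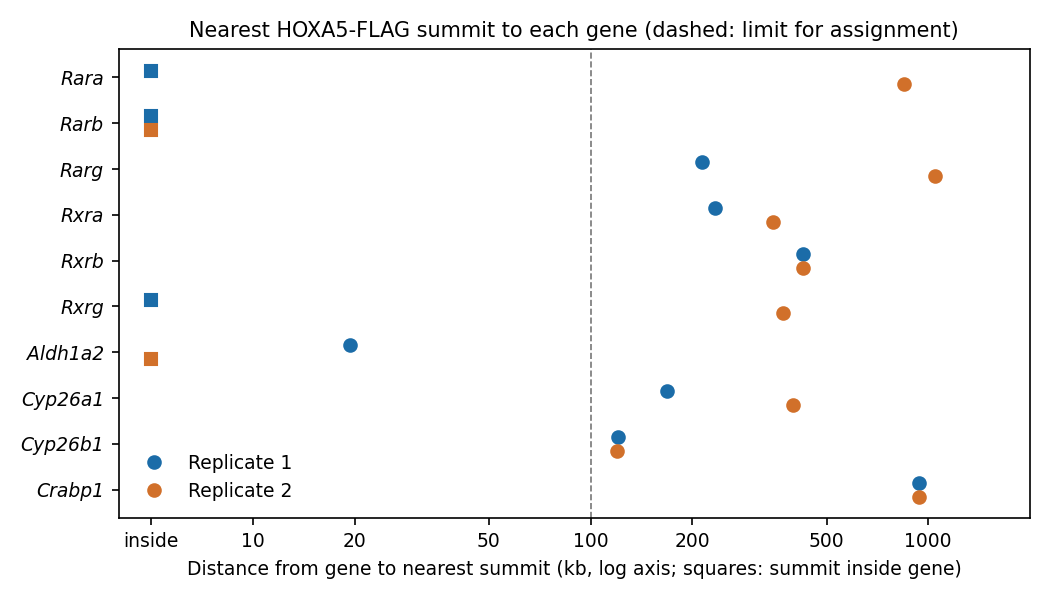
Distance in kb (log axis) from each of the 10 genes to the nearest summit in each list, with squares at the left edge for summits inside the gene and a dashed line at the limit of 100 kb. Rarb is the only gene with a summit inside it in both lists, and the Cyp26b1 points at 120 kb are the nearest beyond the limit.

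Set against all coding genes, 4 of the 10 had a peak in replicate 1 (10.4% of all coding genes did), 2 in replicate 2 (7.58%) and 4 in either list (11.7%). A shared site was found at 2 of the 10, Rarb and Aldh1a2 (5.97% of all coding genes). Counts this small were not tested, and large genes collect more peaks. Rarb and Rxra are in the tenth of coding genes with the most bases assigned to them, of which 45.1% had a peak in either list. For Aldh1a2, Rxrg and Cyp26b1 that share was 25.1%, for Cyp26a1 16.8%, for Crabp1 11.2%, for Rara 6.75%, for Rarg 4.55% and for Rxrb 0.781%.

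The 8 peaks were far below the highest folds of their lists. Their lengths were 288 to 578 bp in replicate 1 and 285 to 333 bp in replicate 2, beside list medians of 414 and 436.5 bp, and the upstream Aldh1a2 peak of replicate 1 was the one longer than its median. Folds ran from 3.21 to 5.60 in replicate 1 and 2.35 to 3.84 in replicate 2, beside list medians of 3.87 and 3.36 and highest folds of 58.1 and 25.6. Of the replicate 1 peaks, those at Rara and Rxrg and the distal one in Rarb were above the list median, and of the replicate 2 peaks the distal one in Rarb was. A partner was found for 2 of the 5 replicate 1 peaks (51.2% of all replicate 1 peaks had one) and 2 of the 3 replicate 2 peaks (77.6%). In replicate 1 the Aldh1a2 peak, with the lowest fold of the 5, had a partner, while in replicate 2 the peak with the lowest fold of the 3 had none. Among replicate 1 peaks within 10% of the fold at Rxrg, 222 of 436 (50.9%) had a partner, and within 10% of the fold at the Rarb start 339 of 799 (42.4%) did. In replicate 2 the share was 56.1% around the fold of the internal Aldh1a2 peak, 64.6% around that of the upstream one and 87.9% around that of the distal Rarb peak.

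**Figure D4:**
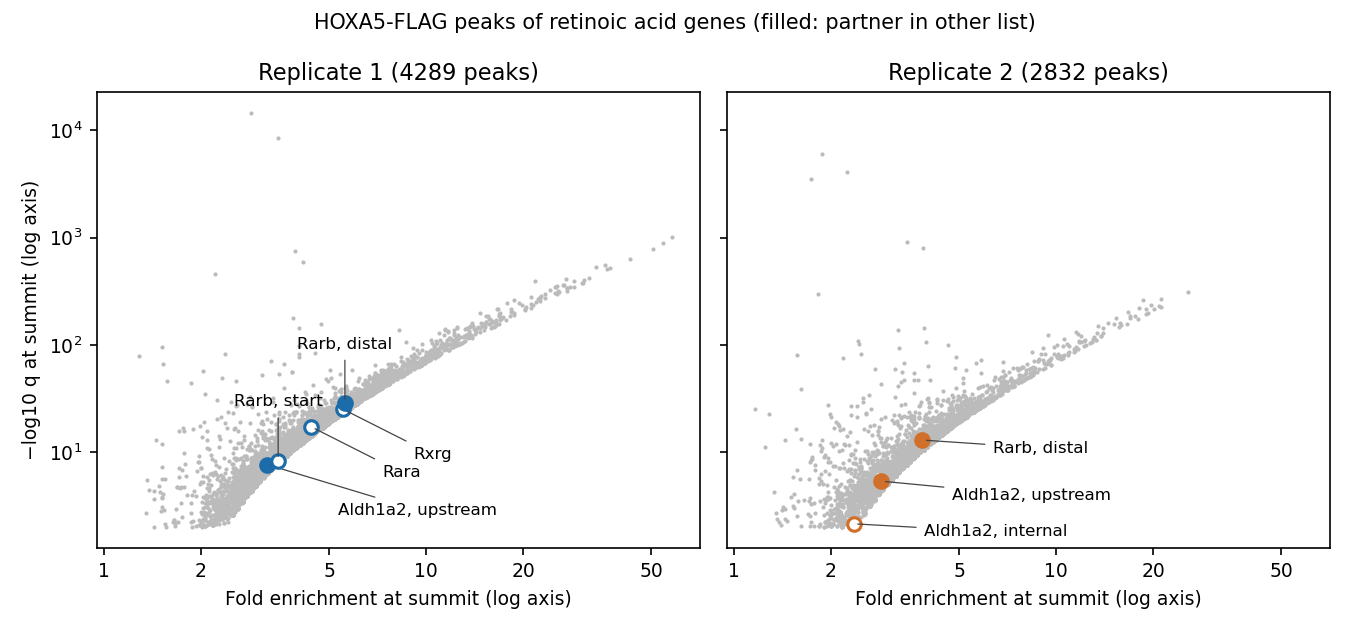
Fold enrichment (log axis) against −log10 q (log axis) for every peak of each list in grey, with the peaks of the retinoic acid genes in colour, filled where the other list has an overlapping peak. The 5 replicate 1 peaks lie between 3.21- and 5.60-fold and the 3 replicate 2 peaks between 2.35- and 3.84-fold.

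Other genes of the pathway were taken as 4 lists. Of 15 receptor coregulator genes, 4 had a shared peak and 1 more a replicate 1 peak. Over all coding genes, 5.97% had a shared peak and 11.7% a peak in either list. Ncoa2, a coactivator gene, held a peak at chromosome 1, 13366379 to 13366943, in replicate 1 with 22.8-fold enrichment, and its replicate 2 partner had 10.6-fold. Peaks 35.0 kb from Nrip1, a corepressor gene, had 8.24- and 5.32-fold enrichment, and peaks 19.6 kb from Nsd1, a histone methyltransferase gene, had 4.02- and 4.15-fold. Tbl1xr1 had a replicate 1 peak of 2.89-fold at 64.1 kb.

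Of 13 genes for receptors that pair with RXR, Pparg had a shared peak, inside the gene, at 8.74- and 6.24-fold in the replicates, and Ppara had a replicate 1 peak (2.69-fold, 63.2 kb away). PPARG is the lipid-sensing receptor of adipocytes and lung lipofibroblasts. Of 20 other genes of retinoid supply, transport and breakdown, 1 had a shared peak: Fabp5, a lipid-binding protein gene, at 22.5 kb (2.97- and 2.84-fold). Rdh11, a retinal reductase gene, held a replicate 1 peak of 4.80-fold. Of 24 genes known as retinoic acid targets, 5 had a shared peak and 6 more a peak in 1 list. Cdkn1a, a cell cycle inhibitor gene, was among the former (2.53- and 2.08-fold at 2.27 kb), with peaks longer than 1000 bp. A further replicate 1 peak of Cdkn1a, 6.66 kb away, had 3.29-fold enrichment and a partner too. That replicate 2 partner was not assigned to Cdkn1a by the rule. Among the 6 genes with a peak in 1 list was Meis2, with replicate 1 peaks of 10.2-fold 0.964 kb from the gene and of 4.50-fold inside it. Hoxb1 (3.49-fold in replicate 1, 39.5 kb) and Nr2f1 (3.00-fold in replicate 2, 73.5 kb) were others. The shares of all coding genes given above apply to these counts too. Shares by the bases assigned to a gene were not computed for these lists, and the counts were not tested.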

How the data were processed

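HOXA5-FLAG ChIP-seq peak lists of 2 immunoprecipitates from E15.5 lungs were used, 1 list per replicate, so the replicates were not pooled. The submitters' processing notes name the mm10 build, Bowtie2 2.5.2 and MACS3 3.0.1, with SAMtools 1.18, bedtools 2.31.0, FastQC 0.12.1, deepTools and Trim Galore. Their settings, and the control used in peak calling, are not stated there. The deposited fold enrichment is a ratio at the summit. The −log10 p and −log10 q are the authors' values too, and the deposited score was not used. The lists give no read counts.

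Lists were read with Python 3.11.15 and pandas 2.3.3. Summits were assigned to RefSeq GRCm38.p6 coding genes, without genes starting below 3 Mb on chromosomes other than Y. Overlap of at least 1 bp made a peak shared, placed at its replicate 1 summit. Exons and introns were not told apart, and motifs were searched in promoter windows only. All 10 genes matched the promoter table. The code was tested on simulated data. Genes were named as members, as neighbours, or for a shared peak or up to 4 peaks in 1 list in each other list, and some of these are left out. Members and lists were chosen with earlier results of these data known, so no test was made. Alternatives changed the overlap, −log10 q, length, distance and competing genes.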

Additional observations from a re-analysis of the deposited data

How the results depend on the processing

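With a single list, 3 (replicate 2) to 5 (replicate 1) peaks in place of 8 belonged to the 10 genes, and 2 to 4 genes had a peak, beside 2 with a shared one. Requiring summits within 100 bp left 1 gene with a shared site, Rarb, and 2 of 4 peaks with a partner. Assignment within 10 kb or 1 kb, or with genes of every type competing, also left 1 gene, Rarb, since the Aldh1a2 site lies 19.4 kb off and inside Gm32511. By the nearest listed coding start 1 gene, Aldh1a2, had a shared site, and the distal Rarb site was lost. A −log10 q of at least 5 removed the internal Aldh1a2 peak (7 of 8 peaks stayed). A limit of 1000 bp in length and a reciprocal overlap of 50% changed none of the counts computed under them. No paired analysis was possible because the inputs that share replicate numbers were not analysed here and no result comes from a test. Depth is unknown, so a missing replicate 2 peak at Rara, Rxrg or the Rarb start shows only that none was called.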

Other observations

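The sequence TGATTNAT, a composite motif of HOX and PBX proteins, was in none of the 17 promoter windows of the 10 genes on either strand. It was in 3.22% of all listed windows, in 13 of the 126 windows overlapped by a replicate 1 peak (10.3%) and in 9 of the 55 overlapped by a replicate 2 peak (16.4%). The core motif TAAT was in 58% of all windows and in 49.2% and 50.9% of those overlapped by a replicate 1 or replicate 2 peak, shares below that of all windows, while those of the composite were above. These shares were not tested, and no match says only that these letters are not in the window.

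Among the genes without a peak, the interval without a replicate 1 summit was longest around Rxra (2228 kb) and Crabp1 (2060 kb). It was 1823 kb around Rarg, 1732 kb around Cyp26a1, 1497 kb around Cyp26b1 and 960 kb around Rxrb. Such intervals were not computed over all coding genes. Beyond the upper end of the Rarb span the next summit was 2647 kb away in both lists. Beyond its lower end the next summit was 65.4 kb away in replicate 1 and 2406 kb away in replicate 2.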
